A study of Arabidopsis thaliana with 12 samples.

Results

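The genes described here are the neighbours of PGR5 on the short arm of chromosome 2 of Arabidopsis thaliana. A gene was a member if its start lay between 1081009 and 3081858 on chromosome 2 (TAIR10), within 1 Mb of PGR5 at chr2:2081009-2081858, and if it had 10 or more exon reads in at least 3 of the 12 libraries. Of 262 genes listed there, 103 were members, out of 16447 genes of the series that met the same read threshold. PGR5 itself and 6 other genes were left out by the rule, and the other 152 genes of the window had too few reads, 121 of them none in any library. Of the members, 75 started before PGR5 and 28 after it.

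The libraries held RNA of fully expanded rosette leaves from 4 genotypes, with 3 libraries each. They were wild type, the double mutant sapx tapx, the single mutant pgr5 and the triple mutant sapx tapx pgr5. All plants had grown for 18 days in weak light (40 to 60 µmol photons, per m2 and second) and had then stood for 90 min in strong light (1500 µmol), so that every group carried the same light treatment and none measured the response to it. The labels do not name the alleles, the parental lines or how the triple mutant was made, and do not say whether replicates came from separate plants, so p-values measure the spread between these libraries, which may be technical.

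PGR5, a small thylakoid protein, takes part in the cyclic flow of electrons that returns them from photosystem I to plastoquinone, and SAPX and TAPX are the stromal and thylakoid ascorbate peroxidases that remove hydrogen peroxide in the chloroplast. When a mutant allele is crossed into another line, the chromosome on both sides of it is inherited with it, and the length that stays depends on where recombination took place. A gene on that stretch can therefore differ between the lines through its own sequence as well as through the physiology of the mutant, and RNA levels cannot tell the 2 apart. The members were read with this question, whether their RNA differed with pgr5 in both backgrounds, and whether they did so more often than genes elsewhere.

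The libraries held 4916603 to 6828070 exon reads, and the members took 0.348% to 0.370% of them. SAPX RNA lay between 198 and 250 CPM (exon reads per 1000000, with library sizes scaled by TMM) in the 6 libraries without the sapx allele and between 16.1 and 28.6 CPM in the other 6, and TAPX RNA fell likewise, from 155 to 210 CPM down to 17.6 to 27.2 CPM. PGR5 RNA gave no check of the pgr5 label: its means were 243, 278, 241 and 241 CPM in wild type, sapx tapx, pgr5 and the triple mutant (average log2 fold change with pgr5 -0.11, SE 0.09, edgeR's quasi-likelihood test with Benjamini-Hochberg adjustment, adjusted p = 0.435). Markers of leaf mesophyll were at 34807 to 47384 CPM in sum and the root markers at no more than 0.834 CPM. The 5 phloem markers summed to 433 to 498 CPM without pgr5 and to 614 to 706 CPM with it, and 3 of them rose. Trichome markers summed to 14.7 to 21.1 CPM without pgr5 and to 9.02 to 15.9 CPM with it, with 2 of the 4 tested of 7 lower and MYB0 (GL1) at under 10 reads over all libraries. Calls with pgr5 were also made among the markers of mesophyll (2 higher and 1 lower of 4), guard cells (2 lower of 6), epidermis (1 lower of 3) and dividing cells (1 lower of 4). Whether these differences contribute to a member's change was not tested, and in leaves taken whole, fewer cells of a type and less RNA per cell cannot be told apart.

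A list of 12 touch and rapid stress genes split the libraries within 3 genotypes. Its mean log2(CPM + 1) was 5.95 in wild type replicate 2 against 3.03 and 3.08 in the other two. It was 4.81 in sapx tapx replicate 2 against 6.53 and 6.04, and 4.06 in triple mutant replicate 2 against 5.99 and 5.87, while the pgr5 libraries lay at 4.31 to 5.38. Counts of members are therefore given below also without these 3 libraries. The list mean still differed between genotypes there. It was 3.03 and 3.08 in wild type and 4.31 to 5.38 in pgr5. It was 5.87 and 5.99 in the triple mutant and 6.04 and 6.53 in sapx tapx. That setting therefore cannot tell a genotype difference from a difference in the touch list.

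The member that stood farthest apart was ZIP7 (AT2G04032, chr2:1289832-1291383, plus strand, 3 exons), a member of the ZIP family of zinc and iron transporters that started 791 kb before PGR5. It had 50, 50 and 61 exon reads in the wild type libraries and 48, 62 and 41 in the sapx tapx libraries. It had 0 reads in all 3 pgr5 libraries and 1, 1 and 0 in the triple mutant. No library with pgr5 came near any library without it. ZIP7 RNA was thus at least 55.7-fold lower in pgr5 than in wild type, taking 3 reads over the group as the floor, and in the triple mutant it was 80.6 times lower than in sapx tapx (95% interval from counting error 21.9 to 671). The average effect had an adjusted p of 6.17e-06 in edgeR's quasi-likelihood test with Benjamini-Hochberg adjustment over all genes tested. All ZIP7 reads were unique to the gene, and the 65 reads across its exon junctions all came from libraries without pgr5.

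ZIP7 lay in a gap between expressed genes. The nearest with reads before it was CR88 (AT2G04030), the chloroplast HSP90, which ended 3.73 kb upstream and is one of the genes the rule left out. After it, the next member was AT2G04039, a DUF2996 protein, 41.9 kb away, and its RNA ranged from 125 to 206 CPM with an average pgr5 effect of 0.01 (log2, SE 0.12, adjusted p = 0.973 in edgeR's quasi-likelihood test). The absence of a transcript was rare in this series. Of 28642 genes listed, 2 had at most 3 reads in the 6 libraries with pgr5 and 10 or more in each of the other 6. The other was AT2G33850 at chr2:14321062-14322049, on the far arm of the same chromosome, with 1 read against 655. Under a wider rule, 0 reads in all libraries of some genotype and 10 or more in each library of another, 7 genes qualified, and ZIP7 was the one member among them.

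The 250 bases before the annotated starts of ZIP7 and AT2G05540, a glycine-rich protein gene described below, are shown to give the sequence context of these starts. They are the reference sequence (RefSeq, TAIR10.1), plus strand, from chr2:1289582-1289831 and chr2:2032906-2033155, and are not read from the mutant lines. Capitals mark matches to the motifs searched.
ZIP7: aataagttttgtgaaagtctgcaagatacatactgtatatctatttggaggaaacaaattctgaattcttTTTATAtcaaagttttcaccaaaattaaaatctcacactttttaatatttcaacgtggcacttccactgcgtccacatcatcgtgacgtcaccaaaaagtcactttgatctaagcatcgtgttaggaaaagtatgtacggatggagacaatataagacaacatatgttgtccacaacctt
AT2G05540: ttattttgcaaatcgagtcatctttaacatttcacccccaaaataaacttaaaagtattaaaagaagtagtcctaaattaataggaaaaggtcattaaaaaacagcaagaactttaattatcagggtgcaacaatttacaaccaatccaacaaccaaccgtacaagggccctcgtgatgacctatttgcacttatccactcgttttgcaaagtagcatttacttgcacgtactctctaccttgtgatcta

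The motifs searched, on both strands, were the TATA box TATAAA, the W-box core TTGAC bound by WRKY factors, the G-box CACGTG, the heat shock element core GAANNTTC and TGTCGACA, the core bound by the zinc deficiency factors bZIP19 and bZIP23. A stretch was counted once per motif, whatever other motif it held. ZIP7 held a TATAAA match on the minus strand and AT2G05540 held none of the motifs. These letters are common: of 28495 upstream stretches of the same length, 47.8% held TATAAA, 44.6% TTGAC, 9.74% GAANNTTC, 7.54% CACGTG and 0.239% TGTCGACA. A match is a description of the reference letters and no evidence of a bound site.

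Across the members, changes with pgr5 were about as frequent as among genes elsewhere. A gene is called where its adjusted p in edgeR's quasi-likelihood test, with Benjamini-Hochberg adjustment over 16350 genes, was under 0.05, and 102 of the 103 members were tested. In pgr5 against wild type 4 members were called, 1 higher and 3 lower, which is 3.92% of them beside 3.90% of all genes. In the triple mutant against sapx tapx 12 were called, 7 higher and 5 lower, or 11.8% beside 7.91%. On average over both backgrounds, 6 libraries against 6, 19 were called, 11 higher and 8 lower, or 18.6% beside 14.9%. A change is described as present in both backgrounds where a gene was called on average and had the same sign and an unadjusted p under 0.05 in each background. This held for 11 members, 7 higher and 4 lower, which is 10.8% beside 9.06% of all genes. All 4 shares lie above the background, by few genes, and no test was made of the excess. It did not hold in every setting: on reads across exon junctions 7.5% of members were called on average, beside 11.2% of all genes.

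The share of calls by distance from PGR5 differed between the comparisons, and no trend was tested. In the triple mutant against sapx tapx it was lower in each step outward, 5 of 28 members within 250 kb, 3 of 26 from 250 to 500 kb, 2 of 23 from 500 to 750 kb and 2 of 25 farther out (17.9%, 11.5%, 8.70% and 8.0%, beside 7.91% of all genes). In pgr5 against wild type the same bins held 0, 1, 2 and 1 calls. On average over both backgrounds, 5 of 28 were called within 250 kb. The counts were 6 of 26 from 250 to 500 kb, 4 of 23 from 500 to 750 kb and 4 of 25 from farther than 750 kb. In the next 1 Mb on either side, 23 of 148 genes tested were called (15.5%), beside 15.3% on the rest of chromosome 2 and 14.9% on the other 4 nuclear chromosomes. Of the 74 tested members before PGR5, 16 were called, and of the 28 after it, 3, all lower. The median log2 fold change was 0.03 over the members and -0.00 over all genes. The members' median absolute change of 0.15 was also close to the 0.18 of all genes.

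**Figure D1:**
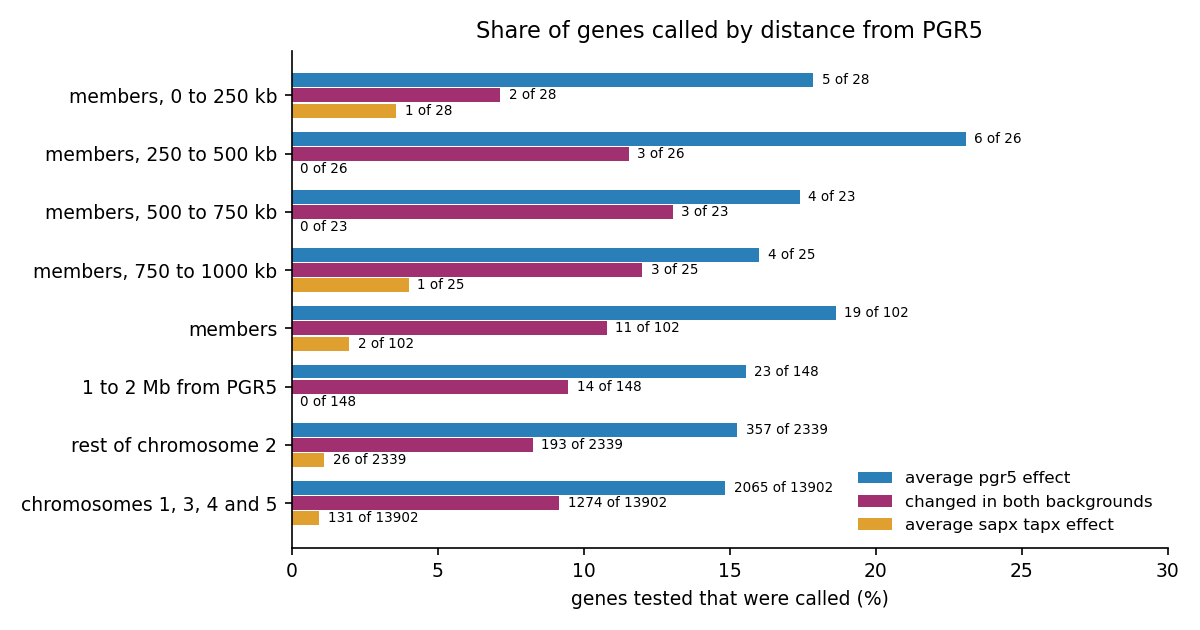
Share of tested genes that were called (horizontal axis, percent; the counts stand at the bar ends), for members by distance of their start from PGR5 and for 3 comparison regions. Blue bars give the average pgr5 effect, purple bars changes present in both backgrounds and yellow bars the average sapx tapx effect; members reached 18.6% for the average pgr5 effect and the other 4 chromosomes 14.9%.

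**Figure D2:**
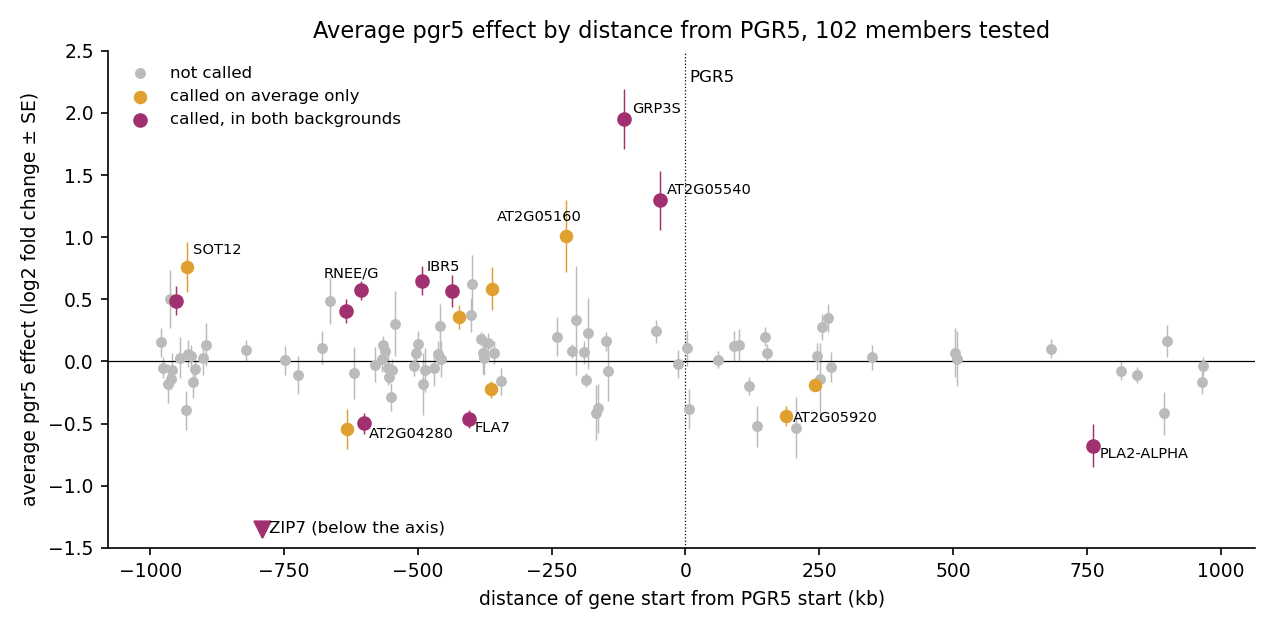
Average pgr5 effect (log2 fold change with its standard error, vertical axis) of 102 members against the distance of their start from that of PGR5 (horizontal axis, kb). The largest positive values, those of GRP3S and AT2G05540, lie shortly before PGR5, ZIP7 lies below the axis at -791 kb, and most members scatter around 0 at every distance.

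With ZIP7 set aside, the largest changes were those of a pair of glycine-rich protein genes. Glycine-rich proteins are small, often secreted proteins of repeated glycines, some of which act in the cell wall or bind wall-associated kinases. GRP3S (AT2G05380, chr2:1966816-1968037), the short paralogue of GRP-3, lay 114 kb before PGR5. Its level was 2.33, 3.29 and 1.26 CPM in wild type, 2.85, 3.59 and 1.52 CPM in sapx tapx, 6.12, 5.09 and 3.53 CPM in pgr5 and 22.0, 16.6 and 15.6 CPM in the triple mutant. The triple mutant libraries stood above all others, whereas the lowest pgr5 library, at 3.53 CPM, was within the range of sapx tapx. The log2 fold change was 1.10 (SE 0.36, adjusted p = 0.118) in pgr5 against wild type and 2.79 (SE 0.32, adjusted p = 2.63e-04) in the triple mutant against sapx tapx, with an average of 1.95 (SE 0.24, adjusted p = 3.02e-04; edgeR's quasi-likelihood test with Benjamini-Hochberg adjustment). The difference between the backgrounds did not pass the test (1.69 on the log2 scale, SE 0.50, adjusted p = 0.366), but it did with the touch list mean as a covariate (1.90, adjusted p = 0.0457). With that covariate 3.43% of all genes were called for this difference, beside 0.141% in the main fit.

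AT2G05540 (chr2:2033156-2034217), another glycine-rich protein gene, lay 47.8 kb before PGR5. It was measured at 1.5, 2.77 and 2.99 CPM in wild type and at 1.43, 3.80 and 2.13 CPM in sapx tapx. With pgr5 the levels were 3.57, 5.09 and 4.49 CPM, and in the triple mutant 7.4, 6.62 and 9.78 CPM. The triple mutant again lay above the rest, and the lowest pgr5 library lay below the highest of sapx tapx. On average it rose by 1.30 on the log2 scale (SE 0.24, edgeR's quasi-likelihood test with Benjamini-Hochberg adjustment, adjusted p = 0.00369). Both genes were counted from few reads, 515 in all for GRP3S and 318 for AT2G05540, every one of them unique to its gene.

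**Figure D3:**
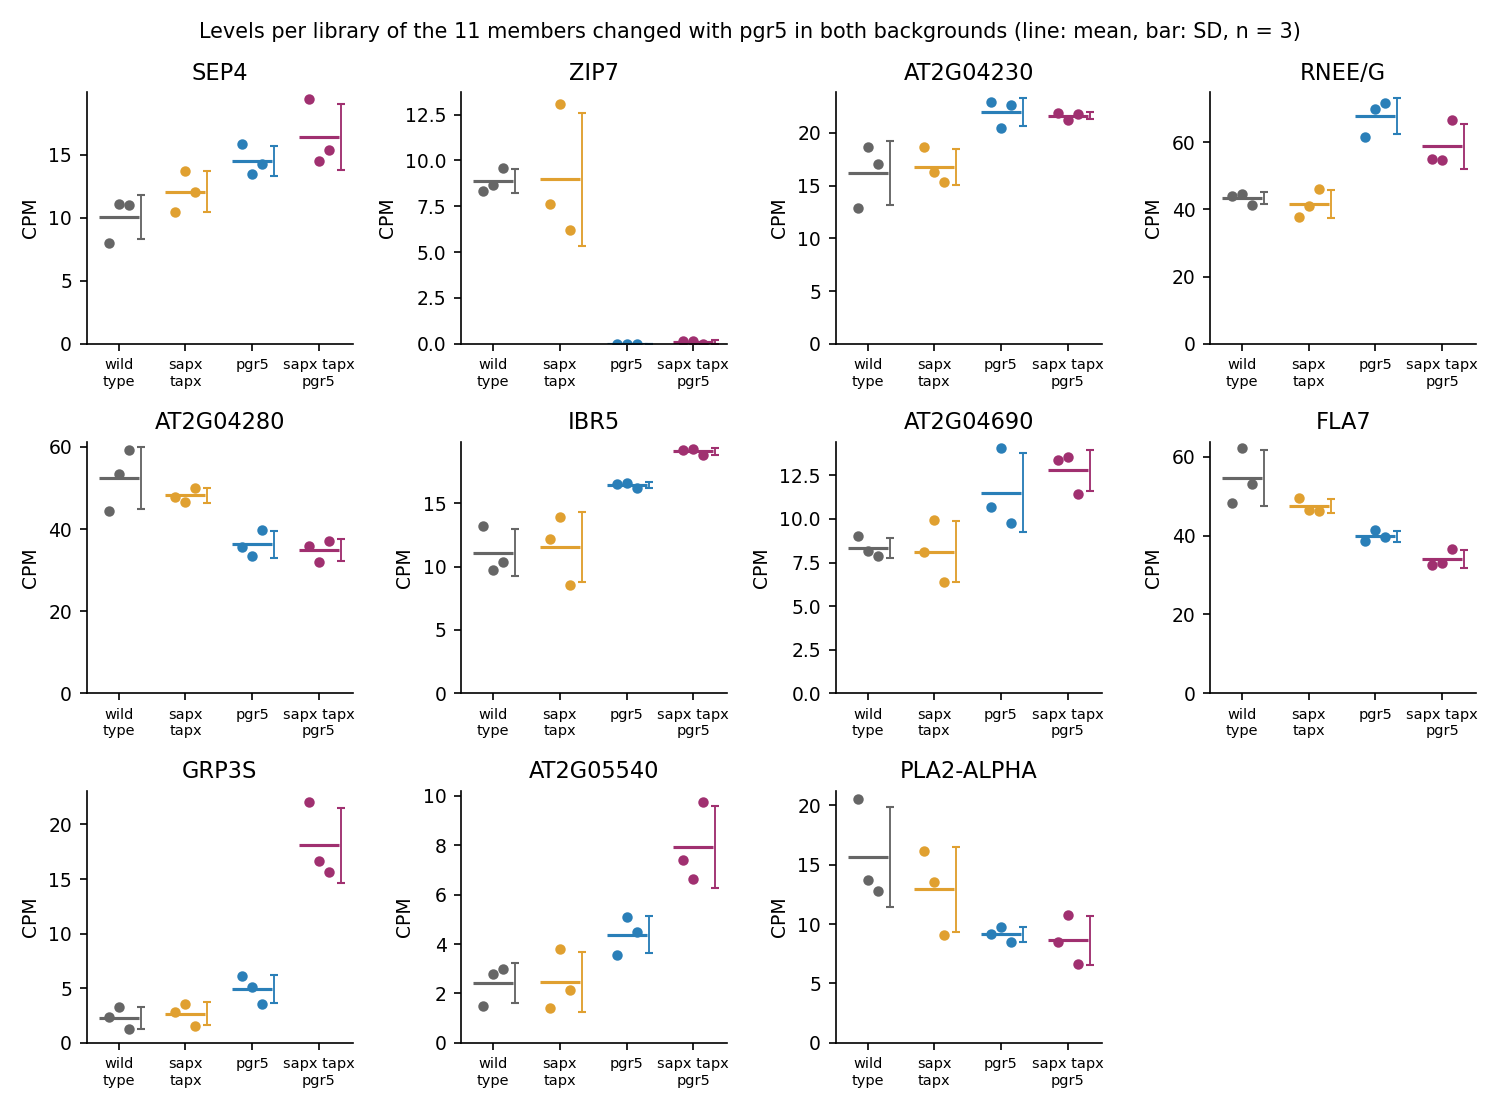
Level in each library (CPM, linear axes from 0) of the 11 members changed with pgr5 in both backgrounds, by genotype, with the mean as a line and the standard deviation as a bar (n = 3). ZIP7 is at or near 0 in all 6 libraries with pgr5, GRP3S and AT2G05540 are highest in the triple mutant, and the other 8 differ by smaller steps.

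The other 8 members changed by less than 1 on the log2 scale. RNEE/G (AT2G04270, chr2:1474679-1480586), the chloroplast endoribonuclease that processes organelle transcripts, was at 44.0, 44.7 and 41.3 CPM in wild type and 37.7, 40.9 and 46.2 CPM in sapx tapx. It was at 61.7, 70.0 and 71.7 CPM in pgr5 and 55.0, 54.8 and 66.5 CPM in the triple mutant. All 6 libraries with pgr5 were above all 6 without, and RNEE/G rose by 0.57 on average (SE 0.08, adjusted p = 6.22e-04, edgeR's quasi-likelihood test with Benjamini-Hochberg adjustment).

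Its neighbour AT2G04280 (chr2:1480068-1482089), annotated as a calcium ion-binding protein, went the other way. Wild type had 44.5, 53.5 and 59.4 CPM and sapx tapx 47.9, 46.6 and 50.1 CPM. The pgr5 libraries had 35.7, 33.4 and 39.8 CPM and those of the triple mutant 35.8, 32.0 and 37.0 CPM. The groups did not overlap here either, and the gene fell by 0.50 on average (SE 0.08, adjusted p = 0.00210, same test). The 3' ends of the pair overlap by 519 bases on opposite strands, and the library kit does not keep the strand, so reads there cannot be assigned to a strand. Of their reads, 95.6% for RNEE/G and 92.0% for AT2G04280 were unique to the gene, and RNEE/G rose by 0.57 also on reads across its exon junctions.

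Among the signalling and transcription genes, IBR5, SEP4 and SCL21 rose on average and ZAP1 fell, 4 of 8 tested, a small list beside the 14.9% of all genes called. IBR5 (AT2G04550, chr2:1588360-1590166), a dual-specificity phosphatase of auxin and abscisic acid responses, was at 13.2, 9.69 and 10.4 CPM in wild type and 12.2, 13.9 and 8.51 CPM in sapx tapx. It was at 16.5, 16.6 and 16.2 CPM in pgr5 and 19.2, 19.2 and 18.8 CPM in the triple mutant. Every library with pgr5 was above every library without it, with an average rise of 0.65 (log2, SE 0.12, edgeR's quasi-likelihood test with Benjamini-Hochberg adjustment, adjusted p = 0.00360).

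SEP4 (AT2G03710, chr2:1129268-1131838), a MADS-box factor of floral organs and meristems, was at 8.0, 11.1 and 11 CPM in wild type and 10.5, 13.7 and 12 CPM in sapx tapx. With pgr5 it was at 15.8, 13.5 and 14.3 CPM, and in the triple mutant at 19.4, 14.5 and 15.3 CPM. The lowest library with pgr5 lay just under the highest without it, and the average rise was 0.49 (log2, SE 0.12, adjusted p = 0.0166, same test). The rise of SCL21, a GRAS family factor, and the fall of ZAP1, a WRKY factor, were called on average and not found in both backgrounds (log2 0.59 and -0.23, adjusted p = 0.0434 and 0.0405, same test). The 2 genes lie tail to tail and overlap, and SCL21 lost its call in 9 and ZAP1 in 10 of the 12 omissions of a library.

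Both cell wall and extracellular genes that were called fell, 2 of 5 tested beside the 14.9% of all genes. FLA7 (AT2G04780, chr2:1676742-1678455), a fasciclin-like arabinogalactan protein of the cell surface, was at 48.3, 62.3 and 53.1 CPM in wild type and 49.5, 46.4 and 46.3 CPM in sapx tapx. It was at 38.6, 41.3 and 39.6 CPM in pgr5 and 32.4, 33.1 and 36.7 CPM in the triple mutant. The groups with and without pgr5 did not overlap, and FLA7 fell by 0.46 on average (log2, SE 0.07, edgeR's quasi-likelihood test with Benjamini-Hochberg adjustment, adjusted p = 0.00157). The subtilase AT2G05920, an extracellular protease, fell in the triple mutant against sapx tapx (-0.63, SE 0.12, adjusted p = 0.00696), whereas pgr5 against wild type gave -0.25 (SE 0.12, adjusted p = 0.268). XTH4, a xyloglucan-modifying enzyme and the one with the highest level of this group at 68.4 RPKM, had an average value of 0.10 (log2, adjusted p = 0.418).

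A further 3 members changed in both backgrounds. AT2G04230 (chr2:1446864-1449100), an F-box protein with FBD and leucine-rich repeat domains, was at 12.8 to 18.7 CPM in the 6 libraries without pgr5 and at 20.5 to 22.9 CPM in the 6 with it. These ranges did not overlap, and it rose by 0.41 (log2, SE 0.10, edgeR's quasi-likelihood test with Benjamini-Hochberg adjustment, adjusted p = 0.0161). AT2G04690 (chr2:1644497-1646355), of the pyridoxamine 5'-phosphate oxidase family, was at 9.0, 8.13 and 7.87 CPM in wild type, 8.08, 9.91 and 6.38 CPM in sapx tapx, 10.7, 14.1 and 9.79 CPM in pgr5 and 13.4, 13.5 and 11.4 CPM in the triple mutant. The lowest pgr5 library lay just under the highest of sapx tapx, and the gene rose by 0.57 (log2, SE 0.13, adjusted p = 0.0122, same test).

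PLA2-ALPHA (AT2G06925, chr2:2842353-2843301), a secreted phospholipase A2 that releases fatty acids from membrane lipids, was the one gene after PGR5 changed in both backgrounds. Its values were 20.5, 13.7 and 12.8 CPM in wild type, 16.2, 13.5 and 9.11 CPM in sapx tapx, 9.18, 9.72 and 8.5 CPM in pgr5 and 8.46, 10.8 and 6.62 CPM in the triple mutant. The lowest sapx tapx library lay among those with pgr5. It fell by 0.68 on average (log2, SE 0.18, edgeR's quasi-likelihood test with Benjamini-Hochberg adjustment, adjusted p = 0.0229), a call lost without wild type replicate 1 (0.0522), sapx tapx replicate 1 (0.0598), pgr5 replicate 3 (0.0564) or triple mutant replicate 3 (0.0583).

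As many as 7 members had all 6 libraries with pgr5 on one side of all 6 without, 3 higher and 4 lower. They were RNEE/G, IBR5 and AT2G04230 above, and ZIP7, AT2G04280, FLA7 and ZAP1 below. Among all genes tested 6.55% were separated in this way, beside 6.86% of the members.

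Most of the close neighbours of PGR5 were not called, as holds for most genes of the series, of which 14.9% were called on average. ATG8D, an autophagy ubiquitin-like protein that starts 1.98 kb after PGR5, ranged from 6.06 to 10.8 CPM over the 12 libraries, with an average pgr5 effect of 0.11 (log2, SE 0.14). AT2G05632, 6.14 kb after it, gave -0.38 (SE 0.16, adjusted p = 0.137, edgeR's quasi-likelihood test). AT2G05590, a TLD-domain protein 13.9 kb before it, gave -0.02 (SE 0.11).

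Farther out, ACO3, a mitochondrial aconitase of the citric acid cycle, was among the steadiest at 220 to 290 CPM, with an average value of 0.01 (SE 0.07). The transporter genes AT2G05755 and AT2G05760 gave 0.12 and 0.13, and the glycosyltransferase gene AT2G05320 gave -0.08. Of the 5 nearest members on each side, 2 were called on average, GRP3S and AT2G05540, both before PGR5, a small set beside the 14.9% of all genes.

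Of 16 members in the list of RNA and protein machinery none was called on average by edgeR's quasi-likelihood test, beside 14.9% of all genes. Their log2 values lay between -0.15 and 0.20 with a median of 0.03. At an unadjusted p under 0.05 there were 4 of the 16, near the 29.8% of all genes. DESeq2 also called 0, beside 13.3% of all genes, and a list this small sets the members little apart. The smallest p in that list was that of EMB2761, an organellar threonyl-tRNA synthetase, at 151 to 201 CPM (0.18, SE 0.06, adjusted p = 0.0542). The gene with the highest level per length there was AT2G05220, a ribosomal protein S17 gene at 185 RPKM, with -0.15 (SE 0.05, adjusted p = 0.0808). It shares reads with its near-identical copy AT2G04390, and 82.4% and 80.3% of their reads were unique, so that both values are uncertain.

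In primary metabolism and lipids 1 of 7 was called, near the 14.9% of all genes, MOD1, the enoyl-ACP reductase of chloroplast fatty acid synthesis. It was at 149 to 158 CPM in wild type, 127 to 142 CPM in sapx tapx, 127 to 134 CPM in pgr5 and 115 to 131 CPM in the triple mutant, an average fall of 0.19 (log2, SE 0.05, edgeR's quasi-likelihood test with Benjamini-Hochberg adjustment, adjusted p = 0.0352). The groups overlapped, and the call was lost in 9 of 12 omissions. AT2G04080, a MATE efflux transporter, NUDT5, a Nudix hydrolase, and MGT3, a magnesium transporter, were not called, with average values of -0.11, 0.30 and 0.15 (SE 0.16, 0.26 and 0.11). These lists were drawn up with results of these data known, and their counts are descriptions.

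The backgrounds could be set side by side because pgr5 against wild type and the triple mutant against sapx tapx share no library. Over 102 members the values had a Pearson correlation of 0.83, which fell to 0.47 without ZIP7, and the Spearman correlation was 0.44 with it and 0.42 without. Over all 16350 genes they were 0.59 and 0.50. The sign was the same for 65 members (63.7%) and for 69.0% of all genes. Genes of a library are not independent, and these figures are descriptions.

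**Figure D4:**
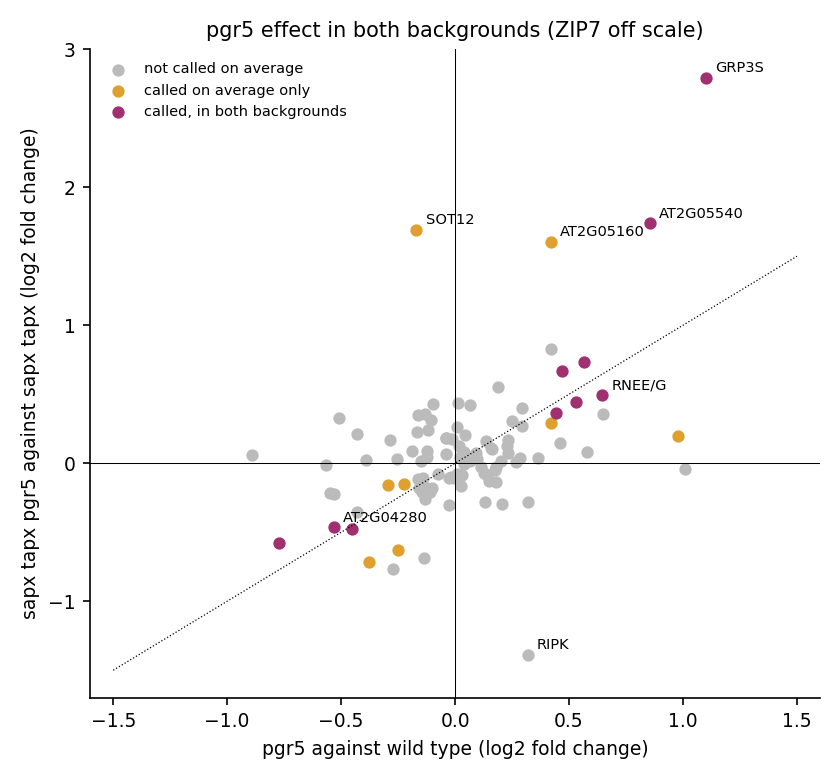
Log2 fold change of each member in pgr5 against wild type (horizontal axis) and in the triple mutant against sapx tapx (vertical axis), with the line of equal values dotted and ZIP7 outside the frame. GRP3S and AT2G05540 lie above the line, SOT12 and RIPK move in the triple mutant comparison with small values in the other, and RNEE/G and AT2G04280 lie close to the line.

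There were 4 members called in the triple mutant against sapx tapx and not changed in both backgrounds, and none in pgr5 against wild type. SOT12 (AT2G03760, chr2:1149337-1150663), a sulfotransferase that acts on salicylate and steroids, was at 6.84, 10.4 and 6.77 CPM in wild type, 10.1, 8.86 and 8.05 CPM in sapx tapx and 5.78, 8.68 and 6.74 CPM in pgr5. In the triple mutant it was at 38.6, 18.0 and 31.1 CPM, above every other library. Its log2 fold change was 1.69 (SE 0.27, adjusted p = 0.00252) against sapx tapx, where pgr5 against wild type gave -0.17 (SE 0.29, adjusted p = 0.811), and the difference between them was 1.86 (SE 0.40, adjusted p = 0.146; edgeR's quasi-likelihood test with Benjamini-Hochberg adjustment). DESeq2's Wald test gave that difference an adjusted p of 0.00471. The other sulfotransferase of the window, AT2G03750, was not called on average (-0.39, SE 0.16, adjusted p = 0.116).

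RIPK (AT2G05940, chr2:2287238-2289307), a receptor-like cytoplasmic kinase of immune signalling, was at 107, 53.2 and 77.6 CPM in sapx tapx and 36.1, 18.3 and 36.7 CPM in the triple mutant. In wild type it was at 29.2, 59.2 and 25.4 CPM and in pgr5 at 48.6, 52.5 and 40.6 CPM. It fell in the triple mutant by 1.39 (log2, SE 0.35, edgeR's quasi-likelihood test with Benjamini-Hochberg adjustment, adjusted p = 0.0314), a call lost in 5 of the 12 omissions. In wild type RIPK was highest in the library in which the touch list was highest, and in sapx tapx and the triple mutant lowest where that list was lowest. Its deviations from the genotype means followed those of the list with a correlation of 0.97 over the 12 libraries. VPS2.1, an endosomal sorting subunit, did so with 0.95 and was not called. With the list mean as a covariate the call of RIPK remained, as it did without the 3 libraries that stood apart, whereas with the replicate number as a block it was lost (log2 -1.37, adjusted p = 0.0567, same test).

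The CCCH zinc-finger gene AT2G05160 rose by 1.6 in the triple mutant against sapx tapx (log2, SE 0.41, adjusted p = 0.0325, edgeR's quasi-likelihood test with Benjamini-Hochberg adjustment). It rested on levels of 1.43 to 6.92 CPM in those 6 libraries, and lost its call in 6 of the 12 omissions and, at 0.0636, without the 3 libraries together. Last of these was the subtilase AT2G05920 described above. On average SOT12 (0.76, adjusted p = 0.0239) and AT2G05160 (1.01, adjusted p = 0.0352, same test) were called too, calls lost in 5 and 8 omissions. AT2G05920 kept its average call in all 12. Called on average only were also AT2G04235 (-0.55, adjusted p = 0.0414) and AT2G04740 (0.36, adjusted p = 0.0290, same test). They lost these calls in 10 and 8 of the 12 omissions.

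No member passed the test for a pgr5 effect that depends on the background, beside 0.141% of all genes, with edgeR's quasi-likelihood test. At an unadjusted p under 0.05 there were 11 (10.8%, beside 7.04% of all genes), and DESeq2 called 2, SOT12 and RIPK. Without the 3 replicate 2 libraries that stood apart in the touch list, edgeR also called 2, again SOT12 and RIPK. That was 1.96% of members beside 1.97% of all genes, in a setting where genotype and touch list cannot be told apart. The counts without those libraries were 7 in pgr5 against wild type, 13 in the triple mutant against sapx tapx, 20 on average and 12 in both backgrounds, of which 10 were among the 11 above. The shares of all genes called there were 8.92%, 10.03% and 18.9% for the first 3, beside 6.86%, 12.7% and 19.6% of the members.

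The sapx tapx alleles, which lie on other chromosomes, offer a contrast in which both sides carry the pgr5 stretch equally often. It called 2 members, beside 0.972% of all genes. They were SOT12 (1.11, SE 0.20, adjusted p = 0.0240), whose call was lost in 8 of the 12 omissions, and GRP-3 (0.80, SE 0.09, adjusted p = 0.00182; edgeR's quasi-likelihood test with Benjamini-Hochberg adjustment). This count rose to 12 (11.8%) without the 3 libraries together, where the share of all genes called rose to 10.2%. There too genotype and touch list cannot be told apart. On unique reads the ribosomal S17 copies AT2G04390 and AT2G05220 were also called, lower with sapx tapx (log2 -0.28 and -0.31, adjusted p = 0.0304 and 0.0171, same test). GRP3S was called higher on reads across exon junctions (1.98, adjusted p = 0.0142, same test), and by DESeq2's Wald test (1.03, adjusted p = 0.0128). It was also called with the replicate block and without the 3 libraries. AT2G04360 was called lower by DESeq2's Wald test (-0.37, adjusted p = 0.0132), with the replicate block, with the touch covariate and without the 3 libraries. GRP-3 and AT2G04360 had all 6 sapx tapx libraries on one side of the 6 others, where 1.02% of all genes did.

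GRP-3 (AT2G05520, chr2:2026162-2027117), whose protein binds the extracellular part of wall-associated kinases, lay 54.8 kb before PGR5. It had the highest level per length of the members at 384 RPKM, beside a median of 9.80 and a lowest value of 0.643 RPKM. It was at 216, 207 and 185 CPM in wild type and 234, 215 and 187 CPM in pgr5, and at 288, 379 and 267 CPM in sapx tapx and 426, 444 and 380 CPM in the triple mutant. The 6 libraries with sapx tapx lay above the 6 without. Its pgr5 effect was 0.06 in one background and 0.42 in the other (SE 0.13 each), neither called.

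Reads of GRP-3 differed in a second way, which was noticed only on looking at these libraries. Of its exon reads, those across exon junctions made up 28.8%, 29.1% and 29.4% in wild type and 28.5%, 29.8% and 29.1% in pgr5. They made up 37.7%, 38.4% and 38.4% in sapx tapx and 38.8%, 38.8% and 39.0% in the triple mutant. The libraries with and without sapx tapx did not overlap. The ranges of wild type and pgr5 overlapped, whereas the triple mutant libraries all lay just above those of sapx tapx. Over all genes the share went the other way, 43.5% to 43.9% in the 6 libraries without sapx tapx and 41.4% to 42.5% in the 6 with it. Of 69 members with a mean of 10 or more junction reads, 5 were separated between these classes, where 5.05% of all such genes were, and GRP-3 and NMD3 were the ones that were higher (0.729% of all). None of the 69 was separated by pgr5, beside 0.14% of all. No test was made of these shares.

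The reference annotates 6 transcripts of GRP-3 that differ by 5 optional introns of 21 to 102 bases, all multiples of 3, within a repeated glycine-coding stretch. It is shown to let the repeats be seen (RefSeq, TAIR10.1, chr2:2026524-2026760, plus strand), with capitals for the span of the optional introns.
GRP-3: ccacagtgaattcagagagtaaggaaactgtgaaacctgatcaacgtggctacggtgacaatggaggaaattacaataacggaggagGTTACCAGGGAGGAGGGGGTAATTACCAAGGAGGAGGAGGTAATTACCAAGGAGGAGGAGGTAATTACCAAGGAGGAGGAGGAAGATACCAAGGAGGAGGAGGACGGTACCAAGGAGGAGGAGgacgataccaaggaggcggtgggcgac

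**Figure D5:**
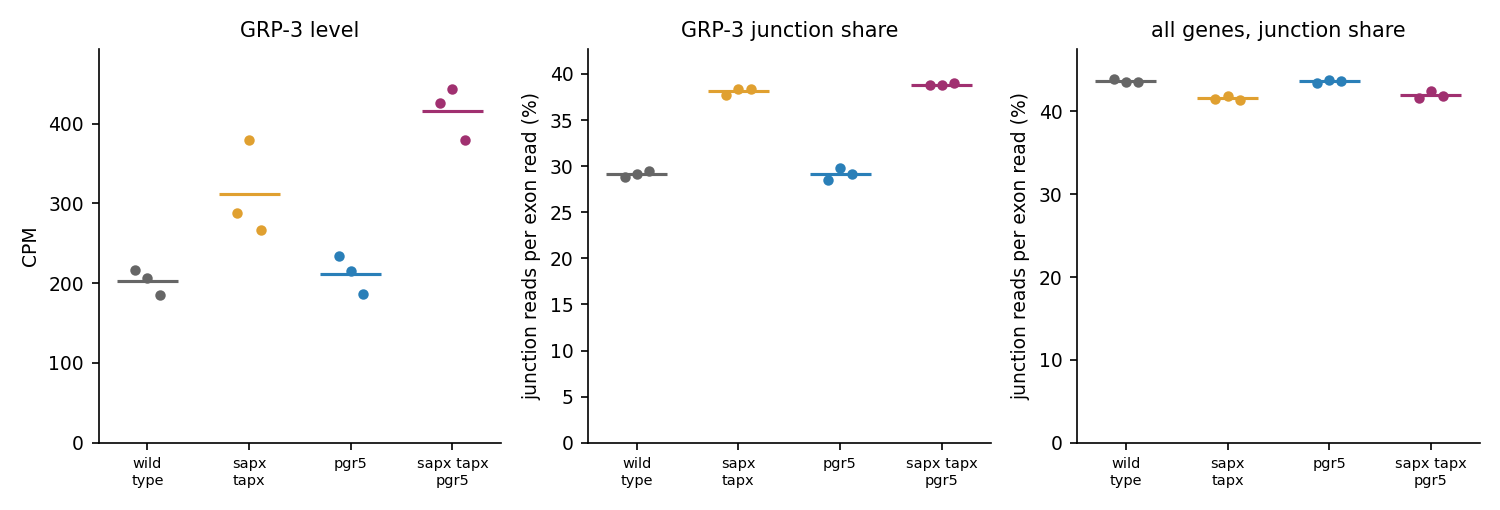
Level of GRP-3 (CPM, left), its share of exon reads across exon junctions (percent, middle) and that share over all genes (percent, right) in each of the 12 libraries by genotype; lines are means of 3 libraries and all axes start at 0. Both GRP-3 measures are higher in the 6 libraries with sapx tapx, while the share over all genes is slightly lower there.

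At its edges the choice of members rested on few reads. AT2G04100, a MATE transporter, was a member with 10, 10 and 11 reads in the triple mutant and 3 to 8 in the others, and was the one member too low to be tested. NUDT6, with 13, 6 and 10 reads in the triple mutant, fell outside. The first member started 981 kb before PGR5 and the last 966 kb after it. Reads of 17 members could be shared with an overlapping gene, and 9 members had under 90% of reads unique to them, whereas 89 had 100%.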

How the data were processed

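RNA-seq libraries (TruSeq RNA v2, a kit that does not keep the strand) came from 12 leaf samples. The authors deposited, per gene and library, exon read counts (total, unique and exon-exon) and RPKM and TPM values, per the file headers. The submitters' processing notes name TAIR10; for aligner, counter and annotation version, the sources used here give no name. Total exon read counts entered the tests; CPM was computed from them as reads per 1000000 exon reads of the genes tested, with library sizes scaled by TMM factors, and the deposited RPKM served to compare genes. One edgeR 4.0.16 quasi-likelihood fit (R 4.3.3) over 12 libraries, with TMM scaling and filterByExpr, gave all contrasts; the fit was tested on simulated data. Depth was 4916603 to 6828070 exon reads, at which the 3-read floor is 0.449 to 0.633 CPM on the same scale; floors and intervals cover counting error only. DESeq2 1.42.0 and 1-at-a-time omissions were alternatives. Symbols, upstream sequence and introns came from RefSeq TAIR10.1. A reference coding span lay inside the deposited gene interval for 103 of 103 members. Only 39 shared a start or an end with the reference gene, and the upstream stretches shown end at the deposited starts. Sequence comparisons of proteins were not made here.

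Members, lists and tests were chosen with earlier results of these data known. Named were members changed in both backgrounds, called in the interaction or the average sapx tapx contrast, the 5 nearest to PGR5 on each side, those with 0 reads in a genotype, up to 3 examples per role list, and those called in one background. Others (VPS2.1, NMD3, AT2G04360, AT2G04390, AT2G33850, NUDT6, AT2G04100 and the members called on average) were named after their values were seen. Replicate numbers were not used to pair libraries in the main fit.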

Additional observations from a re-analysis of the deposited data

How the results depend on the processing

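Scaling by DESeq2's size factors moved none of the counts of called members by over 1.5 times. In pgr5 against wild type the 4 calls became 2 with only the 2 groups in the fit (1.98% of members beside 2.13% of all genes). They became 11 with the touch list mean as a covariate (10.8% beside 8.90%). They became 7 without the 3 replicate 2 libraries that stood apart (6.86% beside 8.92%) and 1 within 500 kb. In the triple mutant against sapx tapx 12 became 5 on exon-exon reads (6.25% of members beside 5.69% of all genes). On average 19 became 6 on exon-exon reads and 11 within 500 kb, and the 11 in both backgrounds became 4 and 5. The exon-exon fit tested 80 members, of which 7.5% were called on average, beside 11.2% of all genes. These settings use fewer reads or fewer genes, and the cause of the lower counts was not tested. The interaction count of 0 became 2 with DESeq2's Wald test, 5 with the touch covariate and 2 without the 3 libraries. The average sapx tapx count of 2 became 4 with DESeq2's Wald test (4.26% beside 2.12%), on unique reads (4.04% beside 0.930%) and with the touch covariate (3.92% beside 1.85%). It became 12 without the 3 libraries (11.8% beside 10.2%) and 1 within 500 kb, and the cause was not tested. Same-numbered libraries deviated together within the 2 single-background pgr5 contrasts, which the main fit ignored. The correlations were 0.20, 0.46 and 0.37 for wild type with pgr5, and 0.47, 0.63 and 0.41 for sapx tapx with the triple mutant. Of all 18 same-numbered pairs, 7 had a correlation over 0.1, and the range was -0.67 to 0.63. Libraries of unlike numbers from other genotype pairs also correlated, such as wild type replicate 2 with triple mutant replicate 1 (0.54). For wild type replicate 3 with triple mutant replicate 2 it was 0.52. The correlations therefore do not show that the numbers pair libraries. With the replicate block the count for pgr5 against wild type was 7 (6.86% of members beside 5.53% of all genes). For the average sapx tapx effect it was 4 (3.92% beside 2.38%), the others staying within 1.5 times. Leaving out 1 library gave 2 to 5 calls in pgr5 against wild type. There were 2 (1.96% of members) without wild type replicate 2 or 3 or any pgr5 library. The share of all genes was 3.98% without wild type replicate 2 and 1.27% to 2.11% in the others. The triple mutant against sapx tapx gave 6 to 13 calls. There were 6 (5.88% of members) without sapx tapx replicate 1 or triple mutant replicate 1 or 3. The shares of all genes there were 5.15%, 4.77% and 4.50%. On average 12 to 18 were called (12 without triple mutant replicate 3, 11.8% of members beside 11.3% of all genes). Apart from the omission of wild type replicate 2, the share of all genes was thus also below that of the main fit. The ranges were 0 to 1 for the interaction, 1 to 3 for sapx tapx and 8 to 12 in both backgrounds. ZIP7, RNEE/G, AT2G04280, IBR5, GRP3S and AT2G05540 kept their average pgr5 calls under every alternative that gave a value, while SEP4, AT2G04230, AT2G04690 and FLA7 lost theirs on exon-exon reads (adjusted p = 0.232, 0.209, 0.0605 and 0.158, edgeR's quasi-likelihood test). AT2G04280, which has 1 exon, and AT2G05540 gave no exon-exon value. A fit of only the groups compared was not run for contrasts of 4 groups. No direction reversed. Depth limits the members of low level, such as GRP3S with 8 to 19 reads a library in wild type, whose smaller changes were not detectable.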
